A study of Mus musculus with 6 samples.

Results

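Cells collected after 3 rounds of eribulin (ERI3) were set against cells collected after 3 rounds of paclitaxel (PAC3). The members are the cells that the deposited cell table names ERI3 or PAC3: 3076 ERI3 cells and 2792 PAC3 cells, together 5868 of the 51785 cells and nuclei of the series. All are PB3 cells, a mouse mammary tumour cell line, and all carry a lentiviral library of lineage barcodes. ERI3 received 500 nM eribulin for 72 h followed by 48 h of recovery, 3 times over. PAC3 received 100 nM paclitaxel for 72 h with 48 h of recovery, then 250 nM paclitaxel in the later rounds; the labels give no length for the recovery after its last round. Each drug has 1 library, in which rounds 1, 2 and 3 were captured together and told apart by hashtag oligos, so each condition is 1 sample. Drug, dose, recovery and library cannot be told apart, no test was made, and intervals in parentheses are exact Clopper-Pearson 95% intervals of a share, which cover counting error only.

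Eribulin and paclitaxel both act on microtubules, the filaments that build the mitotic spindle. Eribulin binds the growing ends and stops them from adding tubulin, while paclitaxel binds along the filament and stabilises it, and cells treated with either tend to arrest in mitosis. A lineage barcode is a short synthetic sequence integrated into the genome of a founder cell and read from the RNA of its descendants, so that cells with the same barcode are taken as 1 lineage.

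Each barcode has 48 bases, a first part of 14 bases and a last part of 30 bases with the same 4 bases between them, and its name gives the number of the first part (after bc14) and of the last (after bc30). The barcodes shown are those that carry the comparison: the pair of lineages with at least 20 cells under each drug, the most frequent lineage seen in ERI3 and not in PAC3, and the most frequent lineages seen in PAC3 and not in ERI3, on and off the barcode list described below. Capitals mark the first part.
bc14-76-bc30-49517: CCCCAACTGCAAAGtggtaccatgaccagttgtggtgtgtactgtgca
bc14-6-bc30-93034: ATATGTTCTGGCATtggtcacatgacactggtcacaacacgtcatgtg
bc14-55-bc30-23349: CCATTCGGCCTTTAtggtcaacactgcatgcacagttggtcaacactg
bc14-33-bc30-33994: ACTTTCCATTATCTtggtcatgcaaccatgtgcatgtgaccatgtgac
bc14-4-bc30-67693: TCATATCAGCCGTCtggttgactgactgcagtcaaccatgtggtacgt
The 16 barcodes named in this comparison differ from each other in 22 to 42 bases, and those of both shared lineages in 35. Below, they are written by their numbers alone, as 76-49517.

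A limit on the barcodes comes before any result on them. The deposited run 2 barcode list holds 185 lineage barcodes and the 6 hashtags. Every one of the 149 barcodes called in the eribulin library was on that list, over 4453 barcoded cells. In the paclitaxel library 82 of 162 called barcodes were not on it, with 1593 of 4647 barcoded cells. In PAC3 itself, 33 of 65 barcodes were off the list, and they held 36.3% (34.3 to 38.3) of its barcoded cells, against 0 of 2215 barcoded cells in ERI3, which allows a share of up to 0.135%. Which list each library was counted against is not given in the sources used here. The absence of an off-list barcode from ERI3 can therefore not be read as the absence of that lineage. The main barcode results are also given on the list alone, which may not be an even basis either. Of its 185 barcodes, 149 were called in the eribulin library and 80 in the paclitaxel library. In the untreated cells of run 1, 350 of 506 called barcodes were off it. Whether differences on the list follow from its make-up was not tested.

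Depth was somewhat lower in ERI3. The median cell had 11267 UMIs in ERI3 and 12776 in PAC3 (10th to 90th percentile 6981 to 19691 in ERI3 and 7717 to 24265 in PAC3), with medians of 2967 and 3293 genes. The stated filter of the study (at least 200 genes, at most 50% mitochondrial UMIs) would have removed 23 ERI3 cells and 45 PAC3 cells that are still in the table. Both conditions shared 3 cell barcodes, of 16 shared by the whole libraries. All cells show counts of 3 hashtags, and the table marks no hashtag doublets.

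The same cluster was the largest after both drugs, while the next largest of each held far fewer cells of the other. Clusters are the authors' own, made on all libraries together, and no gene expression was analysed here by which to name them. Cluster 2 was the largest in each condition, with 55.1% (53.3 to 56.8) of ERI3 and 46.2% (44.3 to 48.1) of PAC3. Among cells with 1 called barcode it held 46.7% (44.6 to 48.8) of ERI3 and 48.5% (46.4 to 50.6) of PAC3, so the larger ERI3 share was not seen there. Next in ERI3 was cluster 8, with 20.7% (19.3 to 22.2) of ERI3 and 4.15% (3.45 to 4.96) of PAC3. Next in PAC3 was cluster 9, with 0.423% (0.225 to 0.722) of ERI3, 13 cells, and 38.3% (36.5 to 40.2) of PAC3, 1070 cells. The sum over clusters of the smaller of both shares, called the overlap here, was 60.1%.

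Clusters 3, 7 and 12 also held larger shares of ERI3 than of PAC3. Cluster 3 held 7.31% (6.42 to 8.29) of ERI3 and 0.895% (0.580 to 1.32) of PAC3. Cluster 12 held 5.01% (4.26 to 5.84) of ERI3 and 0.0716% (0.00868 to 0.259) of PAC3, which is 154 against 2 cells. Cluster 7 held 3.32% (2.71 to 4.01) of ERI3 and 0.931% (0.609 to 1.36) of PAC3. Cluster 6 was alike, with 4.65% (3.93 to 5.45) of ERI3 and 5.16% (4.37 to 6.04) of PAC3. Cluster 13, whose cells had median mitochondrial shares of 68.2% in ERI3 and 69.3% in PAC3 and medians of 774 and 980.0 UMIs, held 1.17% (0.821 to 1.62) of ERI3 and 2.04% (1.55 to 2.64) of PAC3.

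**Figure D1:**
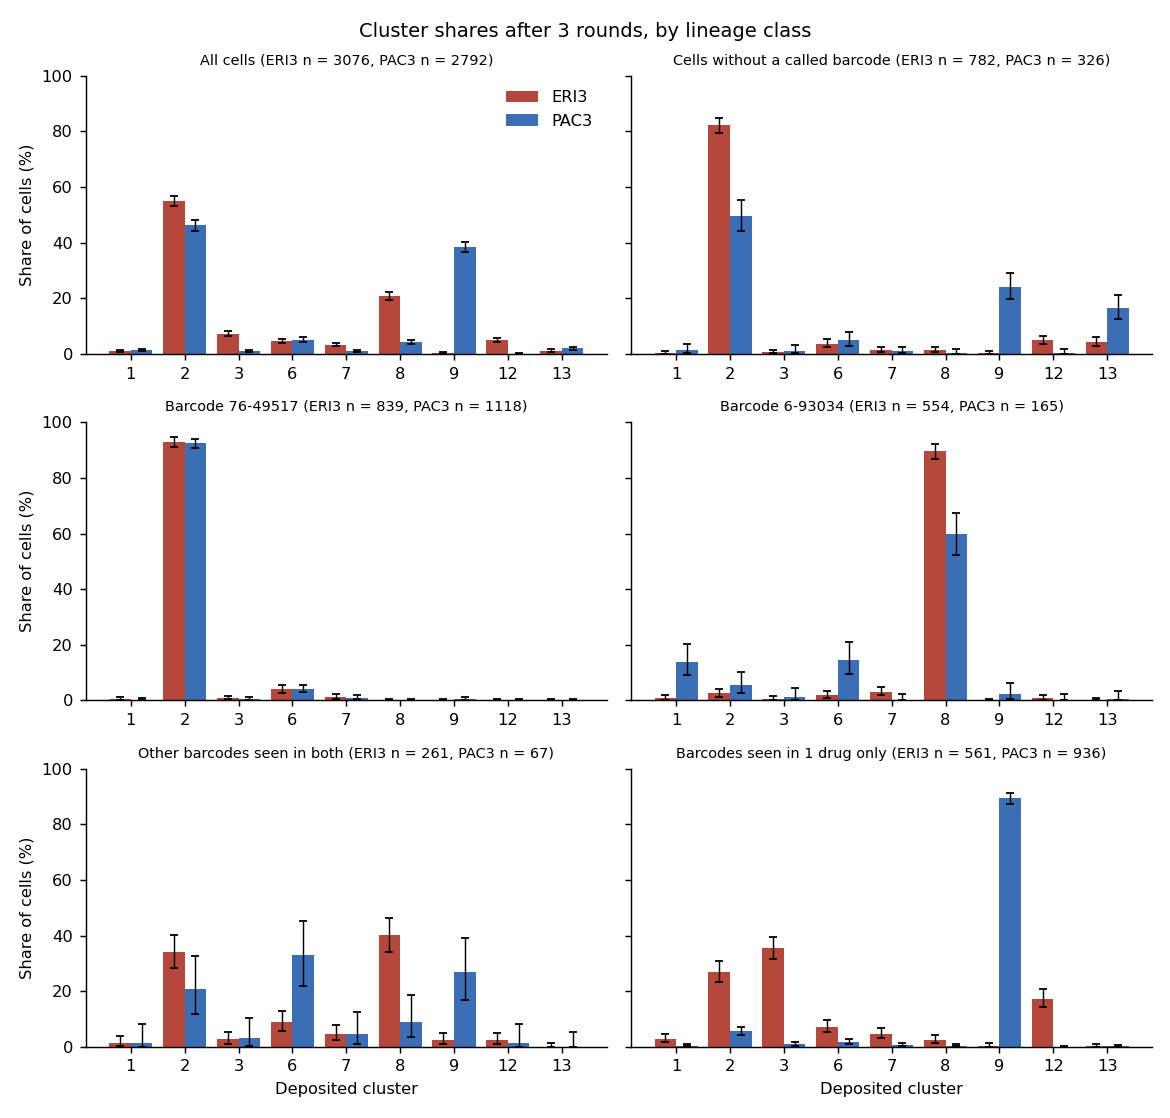
Share of cells in each deposited cluster (percent, y) by cluster number (x) in ERI3 (red) and PAC3 (blue), for all cells and for 5 classes of cells by their lineage barcode; clusters 0, 4, 5, 10 and 11 are left out, and error bars are exact 95% intervals. In all cells, cluster 9 stands at 0.423% of ERI3 and 38.3% of PAC3, while barcode 76-49517 gives nearly the same bars under both drugs.

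Few lineages were seen under both drugs, but those few held most barcoded cells. ERI3 had 63 called barcodes and PAC3 had 65, and 13 were seen in both, 20.6% of those in ERI3 and 20% of those in PAC3. These 13 held 74.7% (72.8 to 76.5) of 2215 barcoded ERI3 cells and 59.1% (57.0 to 61.1) of 2286 barcoded PAC3 cells. Among cells with a barcode on the run 2 list, they held the same 74.7% of ERI3 and 92.7% (91.3 to 94.0) of PAC3. Both populations were dominated by few lineages, with 86.8% (85.3 to 88.2) of barcoded ERI3 cells and 83.6% (82.1 to 85.1) of barcoded PAC3 cells in their 5 most frequent barcodes. On the list these 5 held the same 86.8% of ERI3 and 95.2% (94.0 to 96.2) of PAC3.

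The number of lineages was alike over all barcodes of the latest deposited call and higher in ERI3 on the list. In 2215 cells of each, 63 barcodes were seen in ERI3 and 64.2 were expected in PAC3. The likeness depended on the call. Under its first revision, 2087 cells gave 51.5 expected barcodes in ERI3 and 46 in PAC3. Among cells with exactly 1 detected barcode, 1998 cells gave 49 and 42.9. On the list, 1456 cells gave 52.3 expected barcodes in ERI3 and 32 in PAC3. The effective number of lineages, the inverse Simpson index, was 4.31 in ERI3 and 3.41 in PAC3, or 1.65 in PAC3 on the list alone. A single cell stood for 27 of the barcodes in ERI3 and 26 of those in PAC3, so many of the rare lineages rest on 1 call.

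Named lineages were those with at least 1% of the barcoded cells of ERI3 or PAC3, 16 in all. Of the 16 barcodes with at least 20 cells in total, 37.5% had a share at least 2-fold higher in ERI3. For 56.2% it was at least 2-fold higher in PAC3. Of the 10 on the list these were 60% and 30%, still by shares of all barcoded cells. The lineage 76-49517 was the most frequent under each drug, with 839 cells or 37.9% (35.9 to 39.9) of ERI3 and 1118 cells or 48.9% (46.8 to 51.0) of PAC3. Among cells with a barcode on the list it held 37.9% of ERI3 and 76.8% (74.5 to 78.9) of PAC3. By these shares it too would count as at least 2-fold higher in PAC3. The lineage 6-93034 held 554 cells or 25.0% (23.2 to 26.9) of ERI3 and 165 cells or 7.22% (6.19 to 8.36) of PAC3. Its share was 3.47 times as high in ERI3 over all barcodes, and it held 25.0% of ERI3 and 11.3% (9.75 to 13.1) of PAC3 on the list.

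Further lineages lay almost wholly under eribulin, and their barcodes are all on the list. The lineage 55-23349 held 305 cells or 13.8% (12.4 to 15.3) of ERI3 and 0 cells of PAC3, a share at least 105-fold higher in ERI3 against the 0.131% that 3 cells of PAC3 would make. It lay in cluster 3 with 64.3% (58.6 to 69.6) of its cells. The lineage 39-41529 held 104 cells of ERI3 and 0 of PAC3, at least 35.8-fold, with 87.5% (79.6 to 93.2) of its cells in cluster 12. The lineage 55-98358 held 26 cells of ERI3 and 0 of PAC3, at least 8.94-fold, and spread over clusters, at most 34.6% (17.2 to 55.7) of it in any of them. These bounds count all 2286 barcoded PAC3 cells. Over the 1456 PAC3 cells with a barcode on the list they would be lower. The lineage 95-33662 held 120 cells of ERI3 and 1 of PAC3, and 84.2% (76.4 to 90.2) of its ERI3 cells lay in cluster 8. The lineage 89-6288 held 80 cells of ERI3 and 3 of PAC3, with 73.8% (62.7 to 83.0) of the ERI3 cells in cluster 2. Each of these lineages except 55-98358 had also been called in the paclitaxel library after 1 round, 39-41529 in 22 PAC1 cells, 89-6288 in 13, 95-33662 in 9 and 55-23349 in 6.

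The named lineages seen in PAC3 and not in ERI3 lay mainly in cluster 9, and all but one of them were off the list. Of all 52 barcodes called in PAC3 and not in ERI3, 33 were off the list and 19 on it. There were 7 barcodes with at least 1% of PAC3 and no ERI3 cell, with 786 cells in all, and between 95.6% and 99.0% of each lay in cluster 9. The largest, 4-67693, held 487 cells or 21.3% (19.6 to 23.0) of PAC3, followed by 13-29729 with 88 cells, 86-69871 with 48, 58-9763 with 45, 65-62538 with 36 and 2-90226 with 28, none of them on the list. Of the 7, only 33-33994 was on the list, with 0 ERI3 cells and 54 PAC3 cells or 2.36% (1.78 to 3.07), a share at least 17.4-fold higher in PAC3. It had been called in 14 ERI2 cells of the eribulin library. Every cell has a cluster, with or without a called barcode, and of the 13 ERI3 cells in cluster 9, 3 were without a called barcode and 2 were called Doublet.

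**Figure D2:**
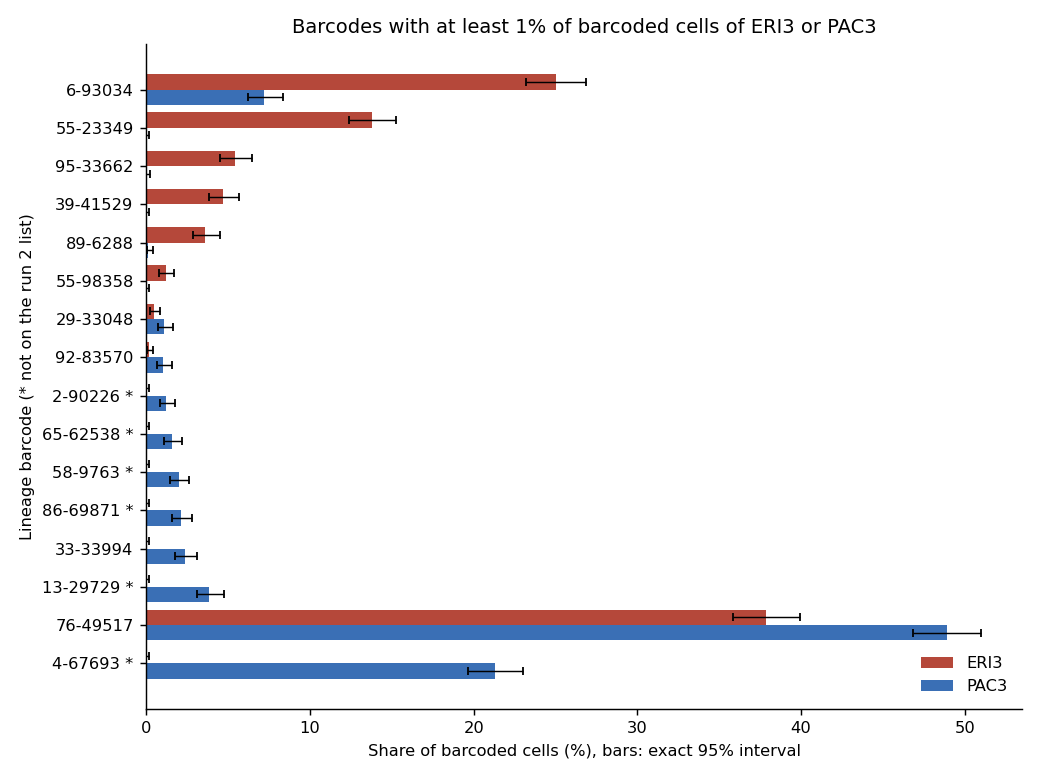
Share of barcoded cells (percent, x) held by each of the 16 named barcodes (y) in ERI3 (red, upper bar) and PAC3 (blue, lower bar), with exact 95% intervals; an asterisk marks a barcode that is not on the run 2 list. From 37.9% of ERI3 and 48.9% of PAC3 in 76-49517, the shares run to lineages with 0 cells in PAC3 (55-23349) or 0 called cells in ERI3 (4-67693).

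A pair of lineages with cells under both drugs were frequent in neither. The lineage 29-33048 held 10 cells of ERI3 and 25 of PAC3, of which 6 and 16 lay in cluster 9. It thus gave 6 of the 13 ERI3 cells in that cluster. The lineage 92-83570 held 3 cells of ERI3 and 24 of PAC3, of which 15 PAC3 cells lay in cluster 6.

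Cells of lineages seen under 1 drug only were divided by cluster, but most of them in PAC3, 830 of 936, carried off-list barcodes, so the values on the list follow. Their overlap was 10.8%, against 68.7% for cells of the 13 lineages seen in both. Of the cells of single-drug lineages, cluster 9 held 0.357% (0.0432 to 1.28) in ERI3 and 89.5% (87.4 to 91.4) in PAC3. Cluster 3 held 35.5% (31.5 to 39.6) in ERI3 and 0.962% (0.441 to 1.82) in PAC3. Cluster 12 held 17.3% (14.2 to 20.7) in ERI3 and 0 of 936 cells in PAC3, which allows a share of up to 0.321%. On the list alone the overlap was 44.0%, over 561 ERI3 cells and 106 PAC3 cells. There cluster 9 held the same 2 ERI3 cells and 51.9% (42.0 to 61.7) of PAC3, 55 cells, of which 52 were of 33-33994. Cluster 3 held 35.5% of ERI3 and 6.60% (2.70 to 13.1) of PAC3, and cluster 12 held 17.3% of ERI3 and 0 of 106 cells in PAC3, which allows up to 2.83%. The ERI3 side also rested on single lineages. Of its 199 cells in cluster 3, 196 were of 55-23349, and of its 97 in cluster 12, 91 were of 39-41529.

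Within the lineages seen in both, the order of cluster 2 was the other way round from that over all cells. Cluster 2 held 53.4% (50.9 to 55.8) of their ERI3 cells and 78.3% (76.0 to 80.5) of their PAC3 cells, while cluster 8 held 36.4% (34.1 to 38.8) and 7.85% (6.47 to 9.42) and cluster 9 held 0.363% (0.133 to 0.788) and 2.07% (1.38 to 2.98). Their mix of lineages differed: 6-93034 gave 554 of the 1654 ERI3 cells and 165 of the 1350 PAC3 cells, so the values are given for each lineage.

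The lineage 76-49517 lay in the same cluster whichever drug it had met. Cluster 2 held 780 of 839 cells or 93.0% (91.0 to 94.6) in ERI3 and 1034 of 1118 cells or 92.5% (90.8 to 94.0) in PAC3. Cluster 6 came next, with 3.93% (2.72 to 5.48) in ERI3 and 4.20% (3.11 to 5.55) in PAC3. Cluster 9 held 0 of its ERI3 cells, which allows up to 0.358%, and 0.537% (0.197 to 1.16) of its PAC3 cells. The overlap of its cluster shares was 98.3%. In the earlier rounds of the same libraries the lineage had not been alike: cluster 2 held 10.5% (3.96 to 21.5) of 57 ERI1 cells and 6.20% (3.51 to 10.0) of 242 ERI2 cells, against 56.1% (48.2 to 63.8) of 164 PAC1 cells and 34.4% (26.1 to 43.4) of 125 PAC2 cells.

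The lineage 6-93034 lay mainly in cluster 8 under both drugs, but more widely spread under paclitaxel. Cluster 8 held 89.7% (86.9 to 92.1) of its 554 ERI3 cells and 60.0% (52.1 to 67.5) of its 165 PAC3 cells. Cluster 6 held 1.99% (0.995 to 3.52) in ERI3 and 14.5% (9.55 to 20.9) in PAC3, and cluster 1, which held 49.3% (48.3 to 50.2) of 11061 untreated cells of run 1, held 0.722% (0.197 to 1.84) and 13.9% (9.05 to 20.2). The intervals do not overlap in any of the 3 clusters. The overlap was 66.3%. In the earlier rounds cluster 8 held 8.65% (4.03 to 15.8) of 104 ERI1 cells and 1 of 13 ERI2 cells, against 43.6% (37.5 to 49.9) of 259 PAC1 cells and 23.1% (11.1 to 39.3) of 39 PAC2 cells.

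The other 11 shared lineages together had 261 ERI3 cells and 67 PAC3 cells and an overlap of 51.1%. Cluster 8 held 40.2% (34.2 to 46.5) of them in ERI3 and 8.96% (3.36 to 18.5) in PAC3, mostly the 120 ERI3 cells of 95-33662. Cluster 9 held 2.30% (0.848 to 4.94) in ERI3 and 26.9% (16.8 to 39.1) in PAC3, mostly 29-33048.

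Seen from the clusters, the same lineage made up most of cluster 8 under both drugs. In cluster 2 the same lineage was the most frequent called under both, with different shares of it and of other cells. In cluster 8, 6-93034 made up 78.1% (74.7 to 81.3) of 636 ERI3 cells and 85.3% (77.6 to 91.2) of 116 PAC3 cells. In cluster 2, 76-49517 made up 46.0% (43.7 to 48.5) of 1694 ERI3 cells and 80.2% (77.9 to 82.3) of 1290 PAC3 cells. Cells without a called barcode made up 38.0% (35.6 to 40.3) of cluster 2 in ERI3 and 12.6% (10.8 to 14.5) in PAC3. Over all clusters they were 25.4% (23.9 to 27.0) of ERI3 and 11.7% (10.5 to 12.9) of PAC3, and cells with no barcode count at all 23.7% (22.2 to 25.2) and 9.56% (8.50 to 10.7). The barcode counts of 76-49517 were low under both drugs, at a median of 3 per cell in ERI3 and 3 in PAC3, against 11 in ERI3 and 10 in PAC3 for 6-93034. Whether the unlabelled ERI3 cells of cluster 2 belong to 76-49517, to an off-list lineage or to unmarked cells was not tested; off-list lineages made up 2.40% (1.64 to 3.39) of cluster 2 in PAC3.

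Doublets, as far as barcodes show them, were more frequent in PAC3. The deposited call was Doublet in 2.21% (1.72 to 2.79) of ERI3 and 5.34% (4.53 to 6.24) of PAC3, and 102 of the 149 PAC3 cells called so lay in cluster 9. Cells with 2 or more detected barcodes were 11.3% (10.2 to 12.5) of ERI3 and 18.4% (17.0 to 19.9) of PAC3. A longer list gives more barcodes to detect, and its part in this difference was not tested.

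In the UMAP, the deposited map of the cells, cells lay closer to others of their own drug than an even mix would give. Of the 30 nearest neighbours, 71.1% were ERI3 for ERI3 cells, which made up 52.4% of the cells, and 68.8% were PAC3 for PAC3 cells, which made up 47.6%. In cluster 9, 97.0% of the neighbours of PAC3 cells were PAC3. In cluster 2 the neighbours were more mixed, 66.2% ERI3 for ERI3 cells and 53.0% PAC3 for PAC3 cells.

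**Figure D3:**
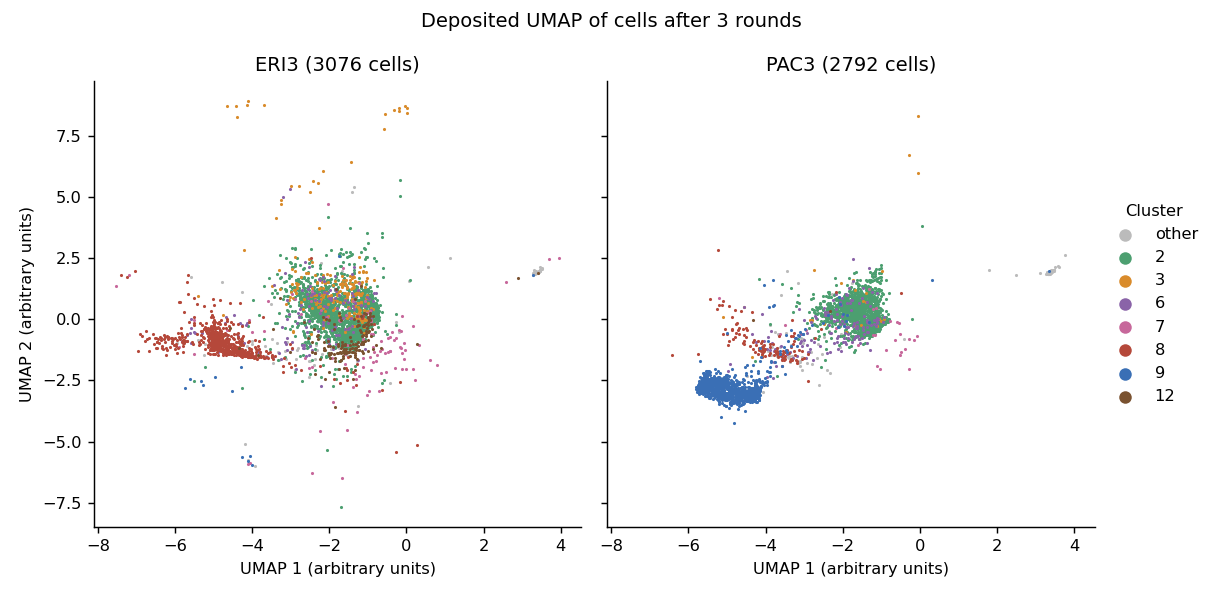
Deposited UMAP coordinates (arbitrary units) of the 3076 ERI3 cells (left) and 2792 PAC3 cells (right), coloured by deposited cluster. Cluster 2 takes up nearly the same place in both panels, cluster 8 is denser in ERI3, and cluster 9, with 13 cells in ERI3 and 1070 in PAC3, forms a separate island in PAC3.

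Within each of the shared lineages, too, cells had more neighbours of their own drug than the pool held. Among cells of 76-49517 alone, 53.5% of neighbours were ERI3 for ERI3 cells, against 42.9% ERI3 in the pool, and 66.7% were PAC3 for PAC3 cells, against 57.1% PAC3 in the pool. Among cells of 6-93034 alone, 85.3% were ERI3 for ERI3 cells, against 77.1% in the pool, and 47.8% were PAC3 for PAC3 cells, against 22.9% in the pool.

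Pseudotime, the authors' measure of distance along a trajectory rooted in untreated cells, differed in its shape more than in its middle. Its median was 22.5 in ERI3 and 21.6 in PAC3 (10th to 90th percentile 15.4 to 25.3 in ERI3 and 18.6 to 22.8 in PAC3), and the ERI3 cell was higher in 58.1% of all pairs. The means were 20.9 in ERI3 and 21.0 in PAC3 and ran the other way by 0.0164, so no direction over all cells is drawn from it. ERI3 lay at both ends of the range. Below 16 lay 24.0% (22.5 to 25.6) of ERI3 and 6.95% (6.03 to 7.96) of PAC3, and at 24 or above lay 11.6% (10.5 to 12.8) of ERI3 and 1.36% (0.965 to 1.86) of PAC3. From 20 to under 22 lay 8.88% (7.89 to 9.94) of ERI3 and 55.0% (53.1 to 56.8) of PAC3, and from 22 to under 24 lay 45.4% (43.6 to 47.1) of ERI3 and 25.6% (24.0 to 27.2) of PAC3. Of the cells below 16, cluster 8 held 560 of 739 in ERI3 and 94 of 194 in PAC3. Its median was 15.6 in each condition; clusters 3 and 12 lay high, with ERI3 medians of 25.0 and 26.9; cluster 9 had a PAC3 median of 22.0. Many cells share 1 value of pseudotime, as many as 44.0% of ERI3 cells and 41.4% of PAC3 cells in cluster 8.

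Inside cluster 2 the eribulin cells lay further along. The median there was 22.7 in ERI3 and 21.0 in PAC3, and the ERI3 cell was higher in 83.4% of pairs. The lineage 76-49517 showed this by itself, with 22.6 in ERI3 and 21.0 in PAC3 and the ERI3 cell higher in 80.6% of pairs. Its ERI3 medians were 22.5 in cells called G1, 23.5 in S and 22.6 in G2M, against 21.0 in G1, 21.0 in S and 20.7 in G2M in PAC3. In a window of 8358 to 19973 UMIs, common to its cells of both conditions, the lineage had medians of 22.7 in ERI3 and 21.0 in PAC3. Unlabelled cells of cluster 2 had medians of 23.1 in ERI3 and 20.9 in PAC3, and cells of its other barcodes 22.6 and 20.9. In the earlier rounds of the eribulin library cluster 2 held 9 ERI1 and 37 ERI2 cells, with medians of 21.0 and 18.0. In the paclitaxel library its median was 20.9 in each of PAC1 and PAC2, over 270 and 65 cells, close to the 21.0 of PAC3. For 6-93034 the medians were 15.6 in ERI3 and 15.6 in PAC3, the value that many cells of cluster 8 share. Its 10th to 90th percentile was 14.9 to 16.3 in ERI3 and 14.6 to 19.3 in PAC3. The ERI3 cell was higher in 44.3% of its pairs. For cluster 6 the medians were 18.7 in ERI3 and 18.6 in PAC3. By the median, clusters 1, 3 and 7 ran the other way. In cluster 1 the medians were 10.7 in 32 ERI3 cells and 11.4 in 37 PAC3 cells. They were 25.0 in 225 and 25.2 in 25 in cluster 3, and 14.5 in 102 and 14.9 in 26 in cluster 7. By pairs only cluster 7 did so, with the ERI3 cell higher in 37.1% of them. The ERI3 cell was higher in 55.3% of pairs in cluster 1 and 55.4% in cluster 3.

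**Figure D4:**
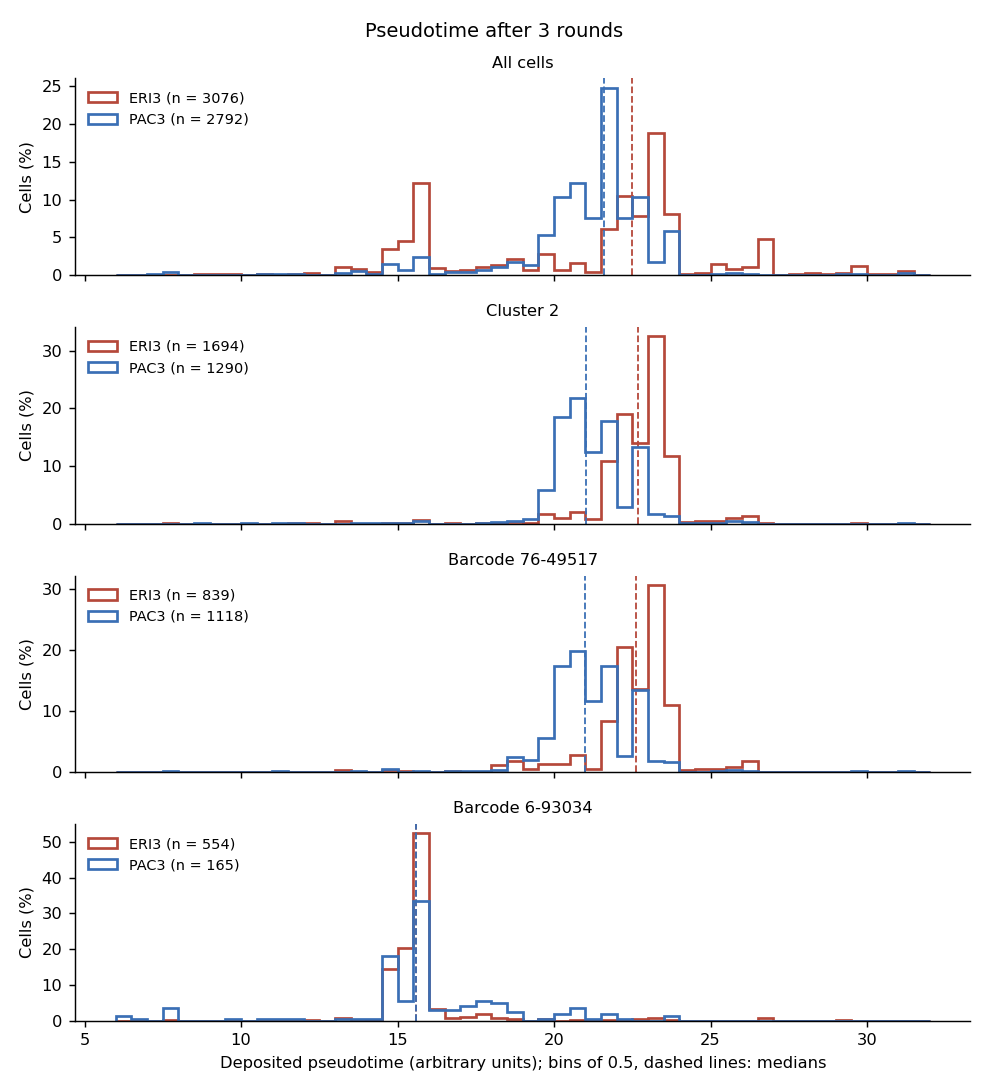
Distribution of deposited pseudotime (x, arbitrary units) as percent of cells per bin of 0.5 (y) in ERI3 (red) and PAC3 (blue), for all cells, cluster 2 and both shared lineages; dashed lines are medians. ERI3 has a low peak near the 15.6 of cluster 8, and in cluster 2 and in 76-49517 its cells lie to the right of PAC3, at medians of 22.7 against 21.0 and 22.6 against 21.0.

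Phase calls differed little between the drugs. Cells called S were 19.6% (18.2 to 21.1) of ERI3 and 17.8% (16.4 to 19.3) of PAC3, and cells called G2M were 40.4% (38.6 to 42.1) of ERI3 and 43.8% (42.0 to 45.7) of PAC3. The call was made from the deposited S and G2M scores, as G1 where neither was above 0 and otherwise the phase with the higher score. The common UMI window, set over all cells of both conditions, was 7716.8 to 19690.5 UMIs. In it the G2M shares were 41.9% of ERI3 and 42.0% of PAC3, a difference of -0.160 points against -3.46 points over all cells. The S shares in the window were 22.5% of ERI3 and 20.0% of PAC3. The window bounds the UMI counts and does not make them equal. No rate of division is read from these calls, which also read depth and free RNA.

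Within the shared lineages the phase calls were close in 76-49517 and apart in 6-93034. In 76-49517 the S share was 16.9% (14.5 to 19.6) in ERI3 and 19.9% (17.6 to 22.3) in PAC3 and the G2M share 45.9% (42.5 to 49.3) and 44.6% (41.7 to 47.6), with overlapping intervals. In 6-93034 the G2M share was 35.7% (31.7 to 39.9) in ERI3 and 47.9% (40.0 to 55.8) in PAC3, and the G1 share 41.7% (37.6 to 45.9) and 28.5% (21.7 to 36.0). Phase shares within a lineage were not taken in a common UMI window. Median UMIs were 10412 in ERI3 and 11389 in PAC3 for 6-93034. In cluster 8, mostly this lineage, G2M was 34.4% (30.7 to 38.3) in ERI3 and 47.4% (38.1 to 56.9) in PAC3. Among clusters filled mainly by 1 drug, cluster 12 had 49.4% (41.2 to 57.5) G2M and cluster 3 had 36.9% (30.6 to 43.6) in ERI3, and cluster 9 had 43.2% (40.2 to 46.2) in PAC3.

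The mitochondrial share of UMIs had a higher median in ERI3, at 2.98% against 2.60% in PAC3 (10th to 90th percentile 1.99 to 4.24 in ERI3 and 1.75 to 3.86 in PAC3) and the ERI3 cell higher in 61.4% of pairs. The means ran the other way, 3.71% in ERI3 and 3.99% in PAC3. They take in cluster 13, with means of 57.1% in 36 ERI3 cells and 64.9% in 57 PAC3 cells. Within the stated filter and outside cluster 13 the medians were 2.96% in ERI3 and 2.58% in PAC3. In cluster 9 the PAC3 median was 2.24%. In cluster 2 the medians were 3.01% in ERI3 and 2.82% in PAC3, and in cluster 8 2.84% and 2.63%. In cluster 3 they were 3.00% in ERI3 and 3.24% in PAC3, and in cluster 7 3.61% and 4.05%, lower in ERI3. The lineage 76-49517 had medians of 3.05% in ERI3 and 2.83% in PAC3, and 6-93034 had 2.95% and 2.63%. Depth differed as well and was lower in ERI3 in both lineages: the median UMI count was 11840 in ERI3 and 13320 in PAC3 for 76-49517, and 10412 and 11389 for 6-93034. In the common UMI window the medians over all cells were 2.96% in ERI3 and 2.55% in PAC3. Lineages seen under 1 drug only had 2.95% in ERI3 and 2.27% in PAC3, or 2.95% and 2.58% on the list alone.

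**Figure D5:**
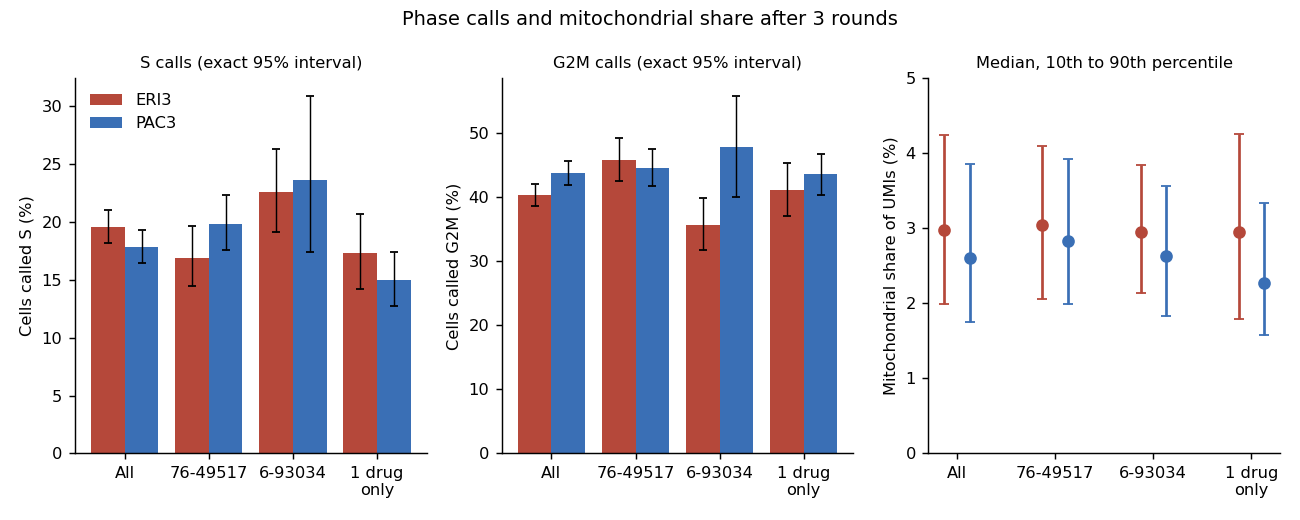
Share of cells called S (left) and G2M (middle) in percent on different y scales, with exact 95% intervals, and mitochondrial share of UMIs in percent (right; point: median, bar: 10th to 90th percentile), for all cells, both shared lineages and the lineages seen under 1 drug only, in ERI3 (red) and PAC3 (blue). Barcode 6-93034 shows 35.7% G2M calls in ERI3 and 47.9% in PAC3, and each median mitochondrial share is higher in ERI3 than in PAC3.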

How the data were processed

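Cell Ranger 4.0.0 (run 2, mm10), Seurat 3.1.4 for clusters and UMAP, and Monocle3 0.2.1 for pseudotime are named in the submitters' processing notes and design text. The counts deposited are UMIs, genes, barcodes and hashtags per cell, not normalized. The deposited percent is a cell's mitochondrial share of UMIs. Deposited as score columns are the phase scores, pseudotime and UMAP positions, all on arbitrary scales. No gene expression matrix was analysed here. Cells were assigned by the deposited condition name after matching their library to the labels, with the latest of 3 deposited barcode calls. Pseudotime was rounded to 5 decimals. Medians, shares of all pairs, cluster overlaps, exact rarefaction and 30 nearest UMAP neighbours were computed with Python 3.11.15, pandas 2.3.3, NumPy 2.4.6 and SciPy 1.17.1. The functions for pairs, overlaps, rarefaction, intervals and neighbours were checked on simulated or small made-up data. Those for phase calls and UMI windows were not. With 1 library per condition no test was run. Doublets were handled only through the barcode calls. Barcodes with at least 1% of either condition were named and those with at least 20 cells of each described in full. Members, lists and rules were chosen with earlier results of these data known.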

Additional observations from a re-analysis of the deposited data

Results flagged for a closer look

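In 3 of 23 measures set side by side, the lineages 76-49517 and 6-93034 differed in opposite directions between ERI3 and PAC3, where a share counted only if it differed by at least 1 point in each lineage; the shares of 4 clusters also had opposite signs but differed by less than that in at least 1 of the lineages. Each condition is 1 library, and the difference between the lineages was not tested. The share of cells called G2M, ERI3 minus PAC3, was 1.25 points in 76-49517 and -12.1 points in 6-93034. This share was not taken in a common UMI window. The median G2M score, ERI3 minus PAC3, was 0.0195 in 76-49517 and -0.110 in 6-93034. The median S score, ERI3 minus PAC3, was -0.00986 in 76-49517 and 0.00739 in 6-93034. No least difference was set for the scores. By the mean, the S score differences had the same direction, -0.00949 in 76-49517 and -0.00374 in 6-93034. Those of the G2M score stayed opposite, at 0.0222 and -0.0484.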

How the results depend on the processing

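No paired analysis was possible because each condition has 1 library and the value of no result comes from a test. Differences are ERI3 minus PAC3, in points for shares. A share or a difference was taken as moved where it left the counting interval of the value in the report. Numbers of barcodes have no such interval and were judged by their ratio to the reported number. Those taken as not moved include 10 lineages seen in both, against 13, and 46 barcodes expected in PAC3, against 64.2, under the first revision of the call. Of 80 alternatives over 22 results, 49 did not move, and 2 moved and changed sign. The settings chosen after seeing the data were barcodes on the run 2 list, the mean of pseudotime, and leaving out clusters 8 and 9.

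In cells with 1 called barcode the cluster 2 difference reversed to -1.83 (8.87 in all cells), and those of clusters 3 and 8 were 8.92 and 23.0. The mean turned the pseudotime difference to -0.0164 (median 0.892). That difference was 0.829 in the common UMI window, 1.79 without clusters 8 and 9, and, averaged over the 7 clusters that had 20 or more cells in each condition, 0.0665 with equal weight and 1.06 weighted by cells; these hold 93.2% of ERI3 and 60.7% of PAC3. The overlap was 56.9% in G1 cells and 64.0% on the list. In the common window the cluster 2 and 9 differences were 11.5 and -40.0, the G2M difference -0.160, and own neighbours 73.2% for ERI3. In G1 cells the cluster 8, 9 and 12 differences were 20.1, -40.6 and 3.87.

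Lineages seen in both numbered 3 with at least 5 cells of each, holding 63.3% of barcoded ERI3 cells. Without that minimum, lineages seen in both held 62.0% of PAC3 under the first revision of the call, 77.2% of ERI3 and 62.6% of PAC3 in cells with exactly 1 detected barcode, and 92.7% of PAC3 on the list, where 32 lineages were expected in PAC3. Averaged with equal weight over 76-49517 and 6-93034, the pair with at least 20 cells of each, and so not the pooled values of all 13 shared lineages, the cluster 8 difference of 14.8 was 7.92 weighted by cells, 9.87 with at least 5 cells of each and 29.7 without 76-49517; cluster 2, at -1.22, was -5.48 with at least 5 cells of each and 0.257 with exactly 1 detected barcode, and cluster 9 was -0.0926 with exactly 1 detected barcode. Among cells of shared lineages alone, own neighbours were 68.2% for ERI3 and 61.9% for PAC3. Barcode depth limits the calls, and shares of rare lineages rest on few cells.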
